A study of Mus musculus with 15 samples.

Results

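The genes described here mostly build the axoneme, the microtubule core of cilia. They were taken by name from the table of estimated counts: every row whose symbol begins with Dnah, Dnai, Cfap or Rsph followed by a digit, and Foxj1, with pseudogenes left out. The rule found 56 of 57010 gene identifiers, of which 16 carry a Dnah name, 31 a Cfap name, 8 an Rsph name and 1 is Foxj1. No row of the name table carried a Dnai symbol. The genes now called Dnai1, Dnai2, Dnai3, Dnai4 and Dnai7 were found under older names, lie outside the rule and are given separately. A Dnah name also took in Dnah2os, an antisense RNA of Dnah2 and not a dynein. In all, 53 of the 56 passed the filter on low counts. The other 3 were Cfap97d1 with no count in any library, Rsph6a with 1 count in 1 library and Dnah17 with 70 counts over all 15 libraries.

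The libraries came from the olfactory epithelium of wild-type male C57BL/6J mice, 8 weeks of age. Tissue ribosomes carrying phosphorylated ribosomal protein S6 were pulled down with an antibody and the RNA bound to them was sequenced, an approach that favours transcripts of recently active cells. All animals spent 4 h in odour-free chambers and then 90 min with filter paper. There were 5 groups of 3 libraries, each library taken as 1 mouse since the labels call the replicates biological. Control mice were given papers with no odorant. A+D mice were given acetophenone and decanal, 10 µL of each, on 1 paper, and A&D mice the same odorants on 2 papers about 1 mm apart. O+C mice were given octanal and cis-3-hexenol, 10 µL of each, on 1 paper, and O&C mice the same on 2 papers. Total RNA of the same tissue was not analysed here, so a level is a level in the precipitate.

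In a motile cilium, the outer and inner dynein arms slide neighbouring doublet microtubules, and the radial spokes and the central apparatus time that sliding. Proteins inside the doublets stiffen them, cytoplasmic factors assemble the arms before transport, and Foxj1 and the RFX factors switch the whole set on. The nasal cavity holds such beating cilia on respiratory multiciliated cells. Olfactory sensory neurons carry long cilia of another kind, built for reception: they have doublets and a central pair but lack dynein arms and do not beat. Cfap69 has a known place in those neuronal cilia, where it shapes the time course of the odour response.

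RefSeq promoter windows, from 250 bases before to 50 after the annotated start on build GRCm38.p6, were at hand for 43 of the 56 genes. Since RFX factors act through the X-box, its letters were searched on both strands as GTNNCC, any 3 bases, then GNAAC. A match stood in 6 of 43 genes (13.95%), against 673 of 27025 genes (2.49%) in the whole table, a gene counting once if any of its windows matched. The forkhead core TGTTTAC stood in 3 of 43 (6.98%), Cfap20, Dnah17 and Cfap43, against 1095 of 27025 (4.05%). The X-box genes were Cfap45, Cfap61, Cfap206, Cfap44, Cfap298 and Dnah17. The first 5, all above the filter, are shown 5′ to 3′ on their own strand with the match in capitals, beginning between 8 and 188 bases before the start.
Cfap45, chr1:172521088-172521147, plus strand: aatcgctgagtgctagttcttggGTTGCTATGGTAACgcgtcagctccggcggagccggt
Cfap61, chr2:145934753-145934812, plus strand: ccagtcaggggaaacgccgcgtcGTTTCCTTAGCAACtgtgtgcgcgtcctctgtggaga
Cfap206, chr4:34730193-34730252, minus strand: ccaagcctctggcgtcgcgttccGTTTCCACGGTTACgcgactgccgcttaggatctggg
Cfap44, chr16:44394749-44394808, plus strand: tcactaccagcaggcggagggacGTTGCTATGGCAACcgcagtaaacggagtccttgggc
Cfap298, chr16:90935001-90935060, minus strand: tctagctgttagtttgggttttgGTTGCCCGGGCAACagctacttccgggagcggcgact
Cfap69 and Cfap161, the genes that the comparisons below turn on, held neither motif in their windows. The bases around their starts are shown with the base of the annotated start as a capital.
Cfap69, chr5:5664183-5664282, minus strand: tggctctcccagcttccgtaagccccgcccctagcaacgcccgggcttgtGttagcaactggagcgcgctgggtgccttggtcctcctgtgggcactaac
Cfap161, chr7:83794790-83794889, minus strand: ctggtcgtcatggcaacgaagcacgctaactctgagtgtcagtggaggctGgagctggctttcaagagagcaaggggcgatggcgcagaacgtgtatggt

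The libraries held 22704193 to 25287077 counts each. Levels are given as CPM, the TMM-scaled count relative to the library size, and where genes are compared with each other as CPM per kb of exon. The axonemal genes took 0.204% ± 0.0078 (SD, n = 3) of the counts in Control. Their share was 0.216% ± 0.0100 in A+D and 0.223% ± 0.0134 with the same odorants apart (A&D). It was 0.224% ± 0.0059 in O+C, and in O&C it was 0.229% ± 0.0077. This share mostly follows the abundant genes, led by means over all libraries of 400 CPM for Cfap20, 250 for Cfap36 and 197 for Rsph1. No dynein heavy chain averaged above 11.3 CPM. Genes listed as markers of both kinds of ciliated cell were detected in every library. Each of the 12 markers of respiratory ciliated cells was detected in all 15, with the lowest single value at 2.85 CPM. Among these markers, Dynlrb2, Tekt1 and Tekt4 were also listed here as genes of the axoneme. The 13 markers of mature olfactory neurons summed to between 9247 and 21614 CPM. A transcript's cell of origin cannot be read from such a mixture, and fewer cells of a type cannot be told apart from less RNA per cell. The genes are therefore called axonemal here and not respiratory. That name covers the whole list, including Foxj1, the assembly factors Cfap298 and Cfap300, and 10 genes to which no axonemal role was assigned. In 5 libraries the gland transcript Obp2a was at or below 2.14 CPM, against 110.7 CPM or more in the other 10. The low libraries were Control 1, A+D 2, the first of A&D, and O&C 1 and 3.

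Levels per kb of exon differed widely among the genes. Rsph1, a spoke-head subunit, led at 143 CPM per kb, followed by Cfap36, for which no axonemal role is assigned here, at 91.2. Cfap20, which closes the inner junction of the doublet, stood at 89.8 CPM per kb, and the spoke-head gene Rsph9 at 88.7. Cfap298, a cytoplasmic dynein assembly factor, had 72.0 CPM per kb, and its partner in that task Cfap300 had 27.5. Foxj1 ranked in the upper part of the list at 22.3 CPM per kb, and 16 genes lay above 10. All 15 heavy chain genes lay below 1 CPM per kb. Dnah7a, an inner arm heavy chain, was the highest of them at 0.882, then the outer arm chains Dnah9 at 0.540 and Dnah5 at 0.411. Near copies of Dnah7a were far lower, with Dnah7c at 0.0525 and Dnah7b at 0.0303 CPM per kb. Exon lengths of the heavy chains run from 12009 to 26820 bases. Some levels are uncertain because the counting may have split reads between genes. In Cfap298, Rsph3a, Rsph3b, Cfap74, Cfap157, Dnah9 and Dnah11 the estimated count was not whole in any library, and Cfap20 was whole in 1 of 15. Dnah14 was whole in 3 libraries, and Dnah3 and Dnah8 were whole in 5 each. Among the near copies, Dnah7a was whole in 13, Dnah7b in 10 and Dnah7c in 9, and reads may be divided among them as well.

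**Figure D1:**
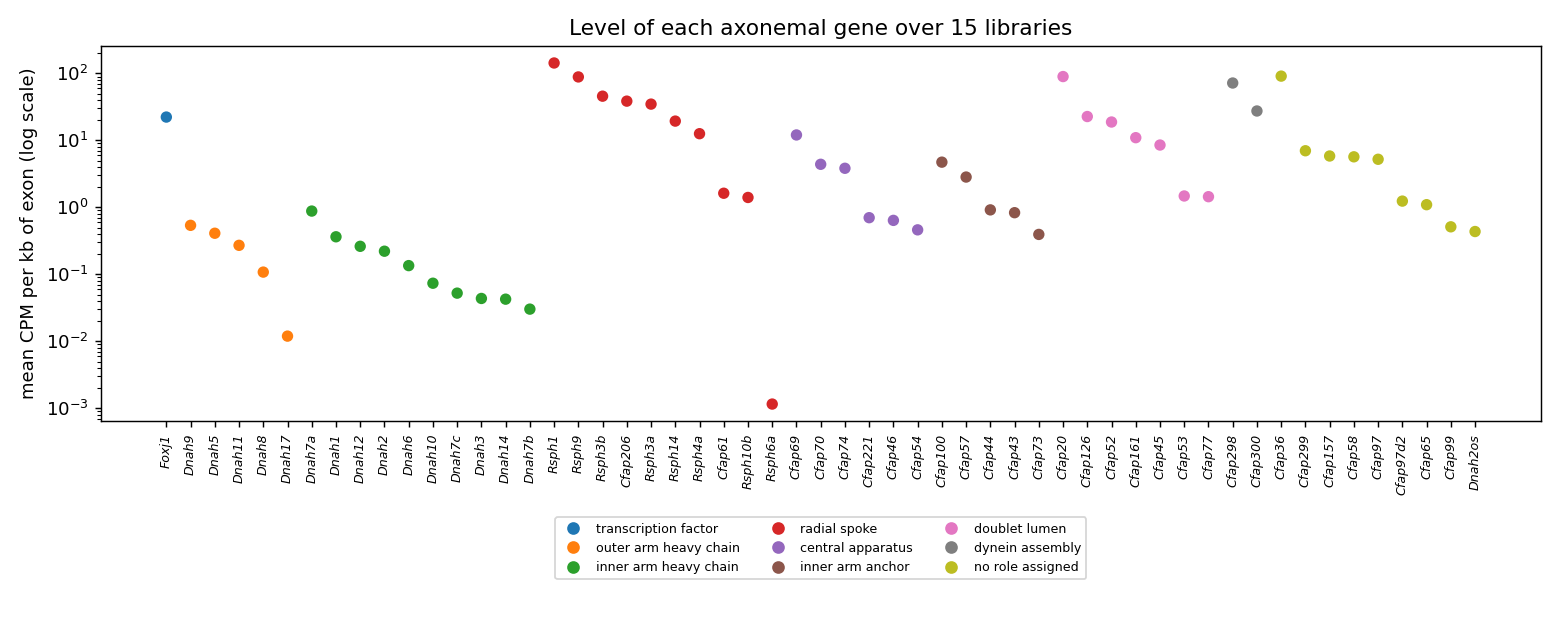
Mean CPM per kb of exon over the 15 libraries for each axonemal gene with any count (log scale on the vertical axis), ordered by role and then by level, with the role in colour. Rsph1 stands highest at 143 CPM per kb, and all 15 heavy chains of the outer and inner arms lie below 1.

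After octanal and cis-3-hexenol, axonemal genes were called in both directions, as were genes at large. In O&C, 11 of 53 were higher than in Control and 5 were lower by edgeR's quasi-likelihood test at a Benjamini-Hochberg adjusted p under 0.05 over all 19229 genes tested. That is 20.8% and 9.43% of the genes tested here, where 9.33% of all genes were called higher and 5.41% lower. In O+C, 4 were higher and 3 lower, 7.55% and 5.66%, beside 5.74% and 2.35% of all genes. The axonemal shares rest on few calls, and whether they differ from those of all genes was not tested. The median log2 fold change over the 53 was 0.07 in O&C, where that of all genes was -0.04, and 0.11 in O+C, where that of all genes was -0.01. The 2 comparisons share the Control libraries. Leaving out single libraries moved the O&C count between 6, without O&C 3, and 15, and the O+C count between 2, without Control 1, and 7.

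**Figure D2:**
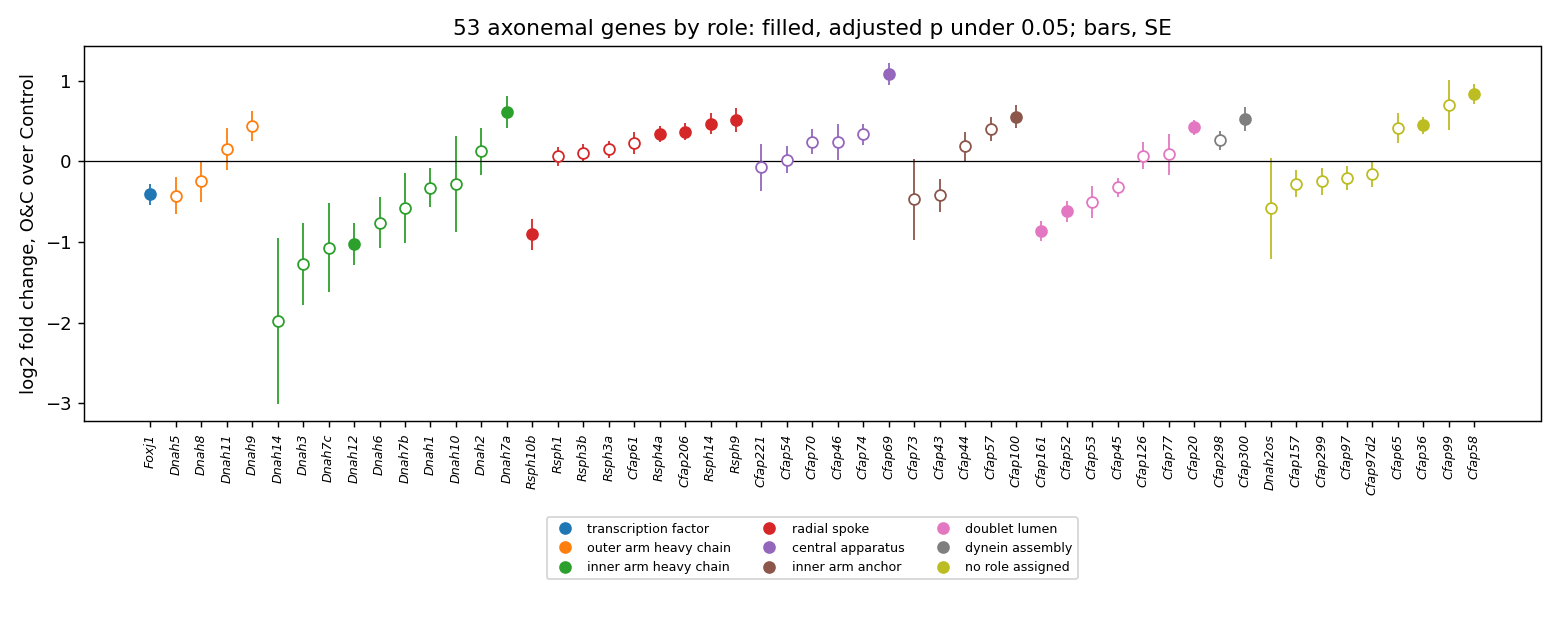
Log2 fold change of O&C over Control for the 53 axonemal genes tested, grouped by role in colour. Bars are standard errors, and filled points have an adjusted p under 0.05. Of the filled points 11 lie above 0, with Cfap69 highest at 1.08, and 5 lie below it, with Dnah12 lowest at -1.03.

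Among the 6 central apparatus genes, Cfap69 rose in both groups and none of the other 5 was called. Cfap69 measured 60.7, 74.6 and 62.4 CPM in Control. With acetophenone and decanal it measured 76.8, 68.2 and 78.6 CPM on 1 paper (A+D) and 83.5, 93.4 and 79.4 on 2 (A&D). With octanal and cis-3-hexenol it measured 112, 108 and 115 CPM on 1 paper (O+C) and 108, 146 and 164 on 2 (O&C). Every O+C and O&C library lay above every library of the other 3 groups. The level was 1.69-fold that of Control in O+C, or 0.76 ± 0.13 (SE) on the log2 scale with an edgeR adjusted p = 0.00216, and 2.12-fold in O&C (1.08 ± 0.13; adjusted p = 5.05e-05). Both calls held in each setting tried, including every left-out library. The other central apparatus genes, Cfap46, Cfap54, Cfap70, Cfap74 and Cfap221, had log2 fold changes between -0.07, for Cfap221, and 0.34, for Cfap74, in O&C.

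The radial spoke genes split. Of 9 tested in O&C, 4 rose and 1 fell, and in O+C none rose and 1 fell. Rsph10b, a spoke-head subunit, was the one that fell: 7.23, 5.98 and 5.78 CPM in Control, 3.44, 3.65 and 4.01 in O+C, and 3.64, 3.24 and 3.25 in O&C. Its log2 fold change was -0.77 ± 0.19 in O+C (edgeR adjusted p = 0.0205) and -0.91 ± 0.20 in O&C (adjusted p = 0.00495). Leaving out Control 1, O+C 1 or O+C 2 ended the O+C call, while the other held without any single library. Rsph9, another head subunit, went the other way in O&C with 135, 161 and 169 CPM against 98.8, 108 and 119 in Control (0.51 ± 0.15; adjusted p = 0.0243). Rsph4a, also of the spoke head, gave 46.2, 56.5 and 59.6 CPM in O&C against 41.7, 42.9 and 44.0 (0.34 ± 0.10; adjusted p = 0.0369). Rsph14 rose by 0.47 ± 0.14 on the log2 scale in O&C and Cfap206, a protein of the spoke base whose X-box is shown above, by 0.37 ± 0.11. These 4 rises each lost their call without O&C 2, without O&C 3 and without at least 1 Control library. Rsph1, the most abundant of the spoke genes, was not called: 183, 196 and 190 CPM in O&C overlapped the Control values of 188, 169 and 188 (0.06 ± 0.12). The paralogues Rsph3a and Rsph3b, spoke stalk genes whose estimated counts were not whole in any library, were not called either.

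Of the 7 genes for proteins in the doublet lumen, Cfap161 and Cfap52 fell in both groups and Cfap20 rose in O&C. Cfap161 measured 51.9, 38.3 and 43.5 CPM in Control, 28.8, 28.8 and 30.5 in O+C, and 26.4, 24.4 and 22.5 in O&C. The O&C values were the lowest 3 of all 15 libraries and the O+C values the next 3. The log2 fold change was -0.60 ± 0.13 in O+C (edgeR adjusted p = 0.00689) and -0.87 ± 0.13 in O&C (adjusted p = 0.000224), which is 0.66 and 0.55 of the Control level. Without Control 1, its highest library, the adjusted p of the O+C comparison was 0.0502. Cfap52 measured 63.7, 51.6 and 50.2 CPM in Control, 37.7, 36.9 and 37.0 in O+C, and 33.3, 38.4 and 35.8 in O&C, with no overlap. Its changes were -0.57 ± 0.13 (adjusted p = 0.0127) and -0.62 ± 0.13 (adjusted p = 0.00422). Cfap52 lost its O+C call without Control 1 and also without O+C 1 or without the library numbered 3. Cfap20 measured 317, 328 and 354 CPM in Control against 452, 422 and 464 in O&C (0.42 ± 0.09; adjusted p = 0.00586). Among the X-box genes shown above, Cfap45 is a lumen protein too; its change of -0.32 ± 0.12 in O&C had an adjusted p of 0.0811. Cfap126, Cfap53 and Cfap77 were not called.

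**Figure D3:**
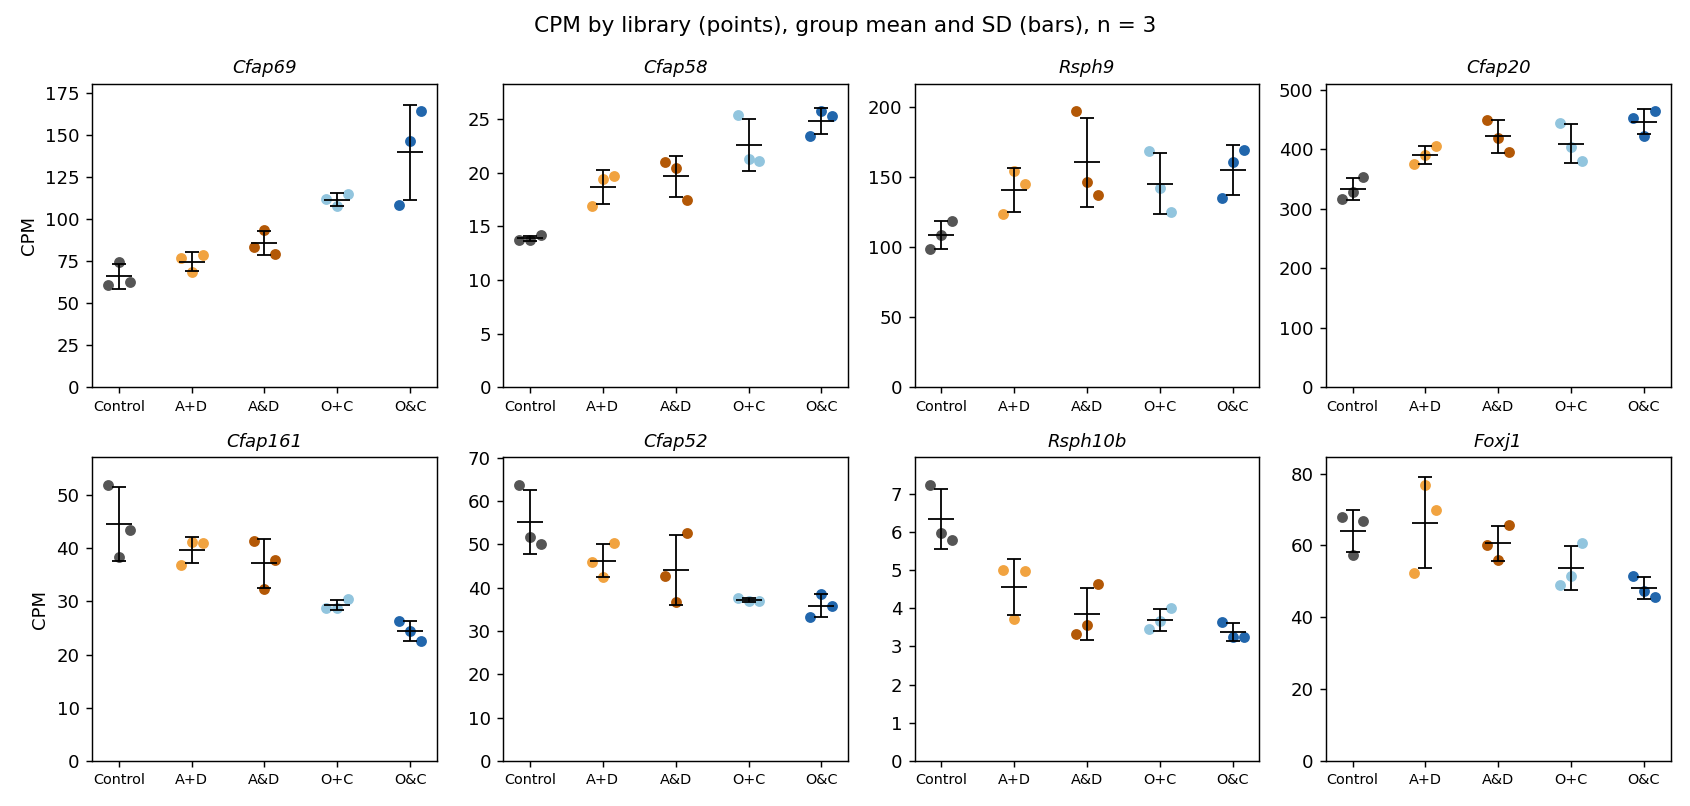
CPM of 8 axonemal genes in each of the 15 libraries (points), with the group mean and SD (bars, n = 3) and the groups on the horizontal axis. Cfap69, Cfap58, Rsph9 and Cfap20 lie higher in O&C than in Control, and Cfap161, Cfap52, Rsph10b and Foxj1 lie lower. Those groups do not overlap in any of the 8. All 8 were picked from the genes called in O&C, so this separation is no further evidence. The share of all genes so separated was not computed.

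Of the 14 dynein heavy chains tested, none was called in O+C and 2 were called in O&C, in opposite directions. Dnah12, a single-headed inner arm chain, fell in O&C: 5.17, 3.55 and 3.47 CPM in Control against 2.25, 2.29 and 1.42 (-1.03 ± 0.26; edgeR adjusted p = 0.0144). That call was lost without Control 1 or O&C 3, and the O+C values of 2.93, 3.33 and 2.76 CPM lay between Control and O&C. Dnah7a rose in O&C, with 11.5, 12.3 and 12.1 CPM against 8.69, 5.86 and 8.96 in Control (0.61 ± 0.20; adjusted p = 0.048), and this call was lost without any one of the 6 libraries. All other groups exposed to odorant also lay above Control for Dnah7a, up to 18.2 CPM in A+D 2. The outer arm chains Dnah5, Dnah9, Dnah11 and Dnah8, the motors that set beat frequency, were not called, with log2 fold changes between -0.43 and 0.44 in O&C. In O&C 10 of the 14 chains had a negative log2 fold change and 4 a positive one, and in O+C 8 and 6. Standard errors for the rare chains were wide, up to 1.03 for Dnah14. Its log2 fold change of -1.98 in O&C had an edgeR adjusted p of 0.216, with 0 counts in O&C 1. The estimated count of Dnah14 was whole in 3 of 15 libraries.

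Of the 5 proteins that anchor or modify the inner arms, Cfap100 alone was called, higher in both groups: 15.6, 14.4 and 15.4 CPM in Control, 22.99, 19.8 and 20.3 in O+C, and 20.5, 23.97 and 22.2 in O&C. Its changes were 0.47 ± 0.14 (edgeR adjusted p = 0.0494) and 0.55 ± 0.14 (adjusted p = 0.0149). The O+C call was lost without any one of the 6 libraries, and the second also ended without Control 2, as without the second or the last O&C library. Of the assembly factors, Cfap300 rose in O&C by 0.53 ± 0.15 (adjusted p = 0.0242) and Cfap298 had 0.26 ± 0.12 (adjusted p = 0.157). Among genes to which no axonemal role was assigned, Cfap58, which is needed for sperm flagella, stood out. It measured 13.7, 13.8 and 14.2 CPM in Control, 25.4, 21.3 and 21.1 in O+C, and 23.4, 25.7 and 25.3 in O&C. The rise was 0.70 ± 0.12 on the log2 scale (adjusted p = 0.00221) and 0.84 ± 0.12 (adjusted p = 0.000267), and both calls held in each setting tried. Cfap36 rose by 0.35 ± 0.10 in O+C (adjusted p = 0.0442, lost without any one of the 6 libraries) and by 0.45 ± 0.10 in O&C (adjusted p = 0.00815, lost without O&C 3).

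Foxj1, the switch for motile cilia, fell in O&C. It measured 67.9, 57.4 and 66.7 CPM in Control, 49.1, 51.4 and 60.7 in O+C, and 51.5, 47.3 and 45.7 in O&C. O&C did not overlap Control and O+C did. The log2 fold change was -0.41 ± 0.13 in O&C (edgeR adjusted p = 0.0473) and -0.25 ± 0.13 in O+C (adjusted p = 0.269). The O&C call did not survive leaving out any one of its 6 libraries, with an adjusted p of up to 0.265 over all settings. The other regulators of multiciliated cell formation, 13 genes, gave 6 lower and none higher in O&C, with a median of -0.56. Those that fell were the coregulators Mcidas (-0.68) and Gmnc (-1.29), the cyclin Ccno (-0.43), Myb (-0.56) and the centriole amplification genes Deup1 (-0.94) and Ccdc78 (-0.92). The rest were not called and went both ways. Rfx2 (0.33), Rfx3 (0.45), E2f4 (0.20) and E2f5 (0.28) had positive values, and Trp73 (-0.63), Foxn4 (-0.56) and Cdc20b (-0.57) negative ones. Gmnc averaged 2.01 CPM over all libraries, and its SE was 0.41, with an edgeR adjusted p of 0.0405. Its 1.76 CPM in O&C 2 lay above the 1.74 CPM of Control 1. Among Control libraries, Control 1 was highest for Mcidas, Ccno and Deup1, and not for Gmnc, Myb or Ccdc78. Leaving out single libraries was not tried for the calls of genes outside the rule, here or below. In O+C, Deup1 (-0.54) and Ccdc78 (-0.76) fell and Rfx3, whose product binds the X-box, rose (0.74). Summed over the 13 genes the level was 343 to 421 CPM in Control, 341 to 409 in O+C and 334 to 338 in O&C.

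With acetophenone and decanal, no axonemal gene passed the edgeR test against Control in either group. In A+D, 0.296% of all genes were called higher and 0.026% lower. At an unadjusted p under 0.05 there were 7 axonemal genes, 6 with a positive and 1 with a negative log2 fold change. DESeq2 called 1, and the smallest edgeR adjusted p was 0.134, for Dnah7a. The median log2 fold change was 0.08, beside 0.02 over all genes. In A&D, 1% of all genes were called higher and 0.0208% lower. At an unadjusted p under 0.05 there were 10 axonemal genes, 8 positive and 2 negative. DESeq2 called 5, and the smallest edgeR adjusted p was 0.0667, for Cfap58. The shares of all genes at an unadjusted p under 0.05 and by DESeq2 were not computed for A+D or A&D. Without them, these counts cannot be read as an effect on the axonemal genes. The median was 0.08, beside -0.00 over all genes. Cfap69 had 0.18 ± 0.13 in A+D, beside 0.37 ± 0.13 for A&D, and Cfap58 had 0.43 ± 0.12 and 0.50 ± 0.12. Cfap161 had -0.17 ± 0.12 and -0.26 ± 0.12, with A+D at 36.8, 41.1 and 41.1 CPM and A&D at 41.4, 32.3 and 37.9 CPM, both overlapping Control. Rsph9 lay above Control in every library of both groups, with 124, 155 and 145 CPM in A+D (0.38 ± 0.15; edgeR adjusted p = 0.297) and 197, 147 and 138 CPM in A&D (0.56 ± 0.15; adjusted p = 0.0815). Dnah7a had 0.80 ± 0.20 in A+D and 0.56 ± 0.20 in A&D. Foxj1 stood at 52.2, 76.8 and 70.0 CPM in A+D and at 60.1, 55.9 and 65.6 in A&D. A+D 2 and A&D 1 gave the highest values of Rsph1, at 232 and 247 CPM, and of Cfap126, at 56.2 and 53.9 CPM. The 12 respiratory ciliated markers also summed highest there, to 1344 and 1267 CPM. These libraries are among those with little Obp2a, and A+D 2 had the largest share of counts in ribosomal protein genes, 1.97% where no other library exceeded 1.38%; the part of any of these in the 2 genes' levels was not tested.

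**Figure D4:**
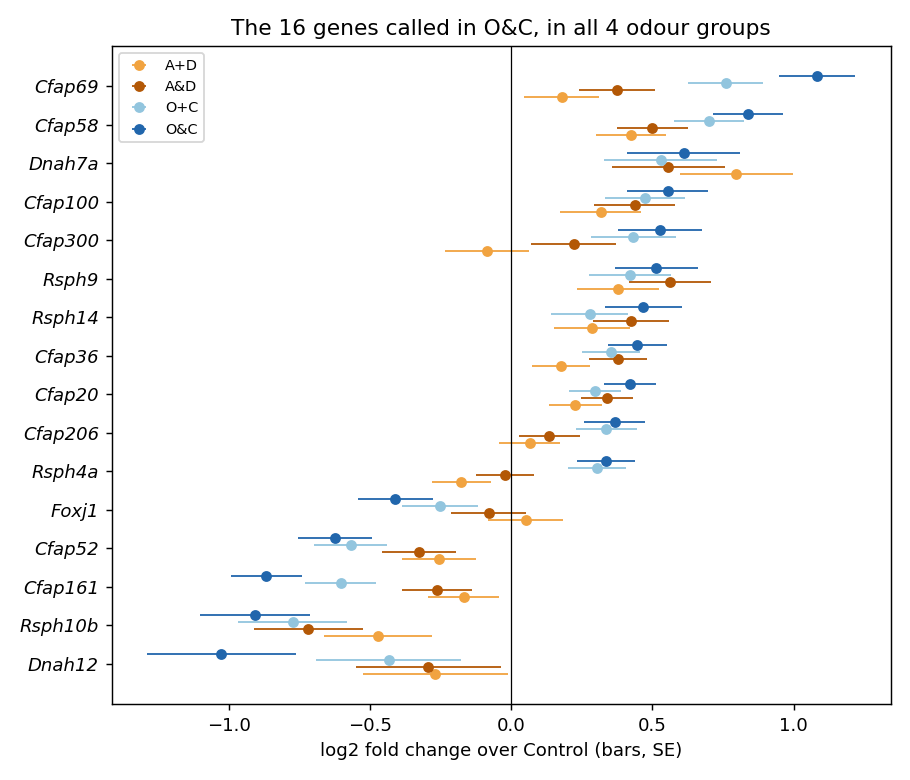
Log2 fold change over Control (horizontal axis, bars are standard errors) of the 16 axonemal genes called in O&C, in each of the 4 groups exposed to odorants, which share the same Control libraries. Cfap69 goes from 0.18 in A+D to 1.08 in O&C, and Cfap161 from -0.17 to -0.87.

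Whether the odorants lay on 1 paper or on 2 changed no axonemal gene past the threshold. Between A+D and A&D none of 53 was called, where 0% of all genes were higher and 0.12% lower in A+D. The count at an unadjusted p under 0.05 was 1, Cfap97, and DESeq2 called 0. Between O+C and O&C none was called, and 0% of all genes were called higher and 0% lower. Here 3 genes had an unadjusted p under 0.05, Dnah5, Dnah12 and Cfap69, and DESeq2 called 0. The share of all genes at an unadjusted p under 0.05 was not computed for either comparison. For Cfap69, the log2 difference of O+C minus O&C was -0.32, with a 95% interval from -0.62 to -0.03. That interval, not adjusted for the number of genes tested, lies below 0, towards a higher level with the odorants apart. After adjustment over all genes the difference was not called. For Cfap161 it was 0.26, from -0.02 to 0.55, and for Foxj1 0.16, from -0.14 to 0.46. Cfap58 differed by -0.14, from -0.41 to 0.14.

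Setting the 6 libraries with octanal and cis-3-hexenol against the 6 with acetophenone and decanal leaves the Control mean out. The Control libraries stayed in the fitted model, and so in the estimate of the spread. Of the 53 genes, 6 were higher (11.3%) and 4 lower (7.55%), beside 9.03% and 6.74% of all genes, and the median log2 difference was -0.01, beside -0.03. These shares lie near those of all genes. Cfap69 was higher by 0.64 ± 0.09 (edgeR adjusted p = 0.000263) and Rsph4a by 0.42 ± 0.07 (adjusted p = 0.00131), each with all 6 libraries above the other 6. Rsph4a measured 38.3, 37.7 and 37.7 CPM in A+D and 41.0, 43.0 and 42.7 in A&D against 56.5, 48.9 and 53.3 in O+C. Cfap161 was lower, with a log2 difference of -0.52 ± 0.09 (adjusted p = 0.0011), again with no overlap. These 3 calls held in each setting tried. Cfap58 (0.31 ± 0.09), Cfap300 (0.41 ± 0.11), Cfap206 (0.25 ± 0.08) and the inner arm gene Cfap57 (0.36 ± 0.11) were also higher. Foxj1 (-0.32 ± 0.09; adjusted p = 0.0306), Cfap52 (-0.31 ± 0.09; adjusted p = 0.0336) and the rare Dnah7c (-1.23 ± 0.40; adjusted p = 0.0428) were lower, each with overlapping libraries. When each of the 12 libraries was left out in turn, Foxj1 and Cfap52 lost their calls 8 times, Dnah7c 9, Cfap57 6, Cfap206 5, Cfap58 3 and Cfap300 0 times. DESeq2 did not call Dnah7c, whose reads may be shared with the other Dnah7 copies. Leaving out single libraries gave between 4 calls, without O+C 1 or without O&C 3, and 12.

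Further genes of the axoneme came from gene lists drawn up beside the rule. Of 14 further central apparatus and spoke genes, 4 rose and 2 fell in O&C, and 4 rose and 1 fell in O+C. The risers were Spef1, Spef2, Armc2 and Dnajb13, a spoke protein, with 0.73, 0.81, 0.61 and 0.70 in O&C, and those that fell were Ak7 (-0.85) and Lrrc23 (-0.50). Of 12 genes of the nexin link and the ruler that sets its repeat, Drc1, Drc2 and Ccdc40 rose in O&C and none fell; Drc1 and Ccdc40 rose in O+C. Of 14 dynein preassembly and docking genes, Dnaaf3 (-0.72 in O&C) and Clxn (-0.72) fell in both comparisons and none rose. None of 7 dynein light chains was called in either by edgeR. Among 11 further doublet proteins, Enkur rose (0.57) and Tekt2 fell (-0.33) in O&C, and none was called in O+C. The 5 Dnai intermediate chains were not called in O+C or O&C. With 4 more genes whose Cfap names are newer than the table, they made 9 genes, of which in O&C Cfap91 rose (0.62) and Cfap144 fell (-0.69).

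Markers of the cells around them moved as well. The 13 mature neuron markers, among them Omp, Cnga2 and Adcy3, were all higher in O+C and in O&C, with medians of 0.79 and 0.97. Their summed level was 9247 to 10250 CPM in Control. With acetophenone and decanal it was 10769 to 13269 CPM on 1 paper and 13199 to 16364 on 2, and with the other odorants 15544 to 19058 on 1 and 15870 to 21614 on 2. Of 28 genes for transport in cilia of every kind, 8 rose in O+C, none fell, and in O&C 11 rose, again with none lower. Among them was Kif17, a motor of olfactory cilia, with 0.73 and 1.01. Of the 12 respiratory ciliated markers, Ccdc153 (-0.76) and Tppp3 (-0.44) fell and Lrriq1 (0.54) rose in O+C. In O&C, Ccdc153 (-0.83), Tppp3 (-0.57) and Ccdc113 (-0.41) fell and none rose, with a median of -0.13 over all 12. Those 12 markers summed to 944 to 1088 CPM in Control, 926 to 1023 in O+C and 923 to 961 in O&C. In O&C, 3 of 8 respiratory secretory markers fell, as did 3 of 6 sustentacular, 5 of 10 immune, 1 of 5 horizontal basal (Krt15) and all 5 red blood cell genes, and no gene of these lists rose. In O+C 1, 1, 4, 1 and 0 genes of these lists fell. None of 9 gland or 7 immature neuron genes was called in either, and of 7 olfactory bulb genes 2 rose in O&C, Snap25 (0.73) and Eomes (0.77). Snap25 was at 671 CPM or more in every library. The bulb genes Gad1 and Th were not called but differed between libraries. They stood at 22.2 and 17.7 CPM in O&C 1, from 2.04 to 9.70 in A+D, and at or below 0.21 in Control. The part of the cell mixture in the changes of the axonemal genes was not tested.

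**Figure D5:**
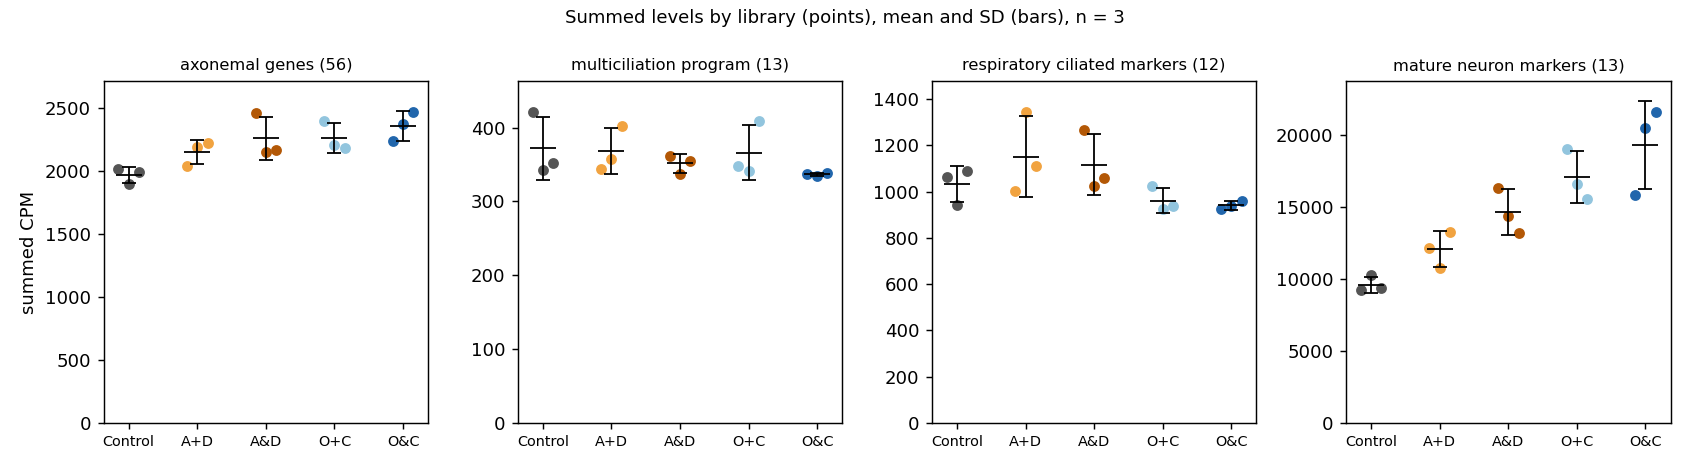
Summed CPM in each library (points) with group mean and SD (bars, n = 3) for the 56 axonemal genes, the 13 multiciliation regulators, the 12 respiratory ciliated markers and the 13 mature neuron markers, each on its own axis from 0. The axonemal sum runs from 1895 CPM in Control 2 to 2464 in O&C 3, and the neuron markers from 9247 in Control to 21614 in O&C.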

How the data were processed

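RNA from phospho-S6 immunoprecipitates of 15 olfactory epithelium libraries was sequenced. The authors deposited expected counts per gene identifier, estimated counts that need not be whole. STAR 2.7.10b, Salmon 1.10.1, R 4.4.2 and build GRCm39 are named in the submitters' processing notes. The annotation and the use of strand in counting are not given in the sources used here, so reads of Dnah2 and Dnah2os may be mixed. Symbols came from a name table for 52029 of 57010 identifiers.

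Counts were rounded. Genes were kept by filterByExpr (minimum count 10), which left 19229, and scaled by TMM. The model was edgeR 4.0.16's robust quasi-likelihood F test in R 4.3.3, with 1 mean per group over all 15 libraries and Benjamini-Hochberg adjustment over all genes, at a threshold of 0.05. The biological coefficient of variation was 0.183. The script was tested on simulated data. Intervals are 95%. Exon lengths came from GENCODE on GRCm38, another build than that of the counts, so CPM per kb is approximate. Promoter windows were read from RefSeq, GRCm38.p6.

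The 7 comparisons were 4 groups against Control, delivery within each odorant pair, and 1 pair against the other. The genes, their roles and the other lists were chosen with earlier results of these data known, so their direction is not independent evidence. Named are Foxj1, the 3 highest genes of a role by CPM, all called genes and the Dnah7 copies; others named were chosen after their values were seen. Alternatives were DESeq2 1.42.0, its size factors, no filter, counts rounded down, only the groups compared, a replicate block, libraries with Obp2a above 10 CPM, and leaving out each library. The highest and lowest library totals differ by little, so depth is even.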

Additional observations from a re-analysis of the deposited data

How the results depend on the processing

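No call of an axonemal gene changed direction in any alternative tried. Of the calls, 2 of 7 in O+C, 3 of 16 in O&C and 3 of 10 between the odorant pairs held in every setting, namely Cfap69 and Cfap58 in O+C, those and Cfap161 in O&C, and Cfap69, Cfap161 and Rsph4a between the pairs. The count of axonemal genes called in A+D was 0, 1 without the filter on low counts and 1 with DESeq2, and 0 to 1 when single libraries were left out. In A&D it was 0, 1 without the filter, 5 with DESeq2 and 1 when only A&D and Control were fitted. The shares of all genes called in the alternatives, here and below, were not computed. In O+C it was 7, 11 when only O+C and Control were fitted, and 2 to 7 without single libraries. It was 2 without Control 1, 3 without O+C 1 and 4 with O+C 2 left out. In O&C it was 16, 4 with only the libraries above 10 CPM of Obp2a, which leave 1 O&C library assumed to vary like the other groups, and 6 to 15 without single libraries; it was 6 without O&C 3, 8 without O&C 2 and 9 without Control 1 or Control 2. Between the odorant pairs it was 10, 3 with only the libraries above 10 CPM of Obp2a, and 4 to 12 without single libraries. Leaving out O+C 1 or O&C 3 gave 4, A&D 1 or O&C 2 gave 5, and A+D 3 gave 6. Of 97 alternative values of the median log2 fold change, 96 stayed within 1 SD of the replicates, 0.087. The exception was O+C without Control 2, where the leave-outs ran from 0.025 to 0.18 around 0.11. That SD is larger than the size of every main median but that of O+C. Most medians could therefore change sign and stay within it, so this says little about their stability.

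With the replicate block, 5 axonemal genes were called in O+C, 12 in O&C and 8 between the odorant pairs, and 0 in the other 4 comparisons. Replicate numbers did not pair the samples: over 30 same-numbered pairs the correlation of deviations ran from -0.33 to 0.14, 3 exceeded 0.1, and 1 of 15 libraries was closest to its own number. The causes of these differences were not tested. Among the genes tested, total counts over the 15 libraries were as low as 131 for Cfap73 and 135 for Dnah2os, and 218 for the heavy chain Dnah7b.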
